A study of Mus musculus with 6 samples.

Results

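The 9 genes described here encode the signalling chains of the T cell receptor complex (Cd3d, Cd3e, Cd3g and Cd247), the coreceptor Cd4, the kinases Lck and Zap70, and the adaptors Lat and Lcp2. They were chosen by name, for their place at the start of antigen receptor signalling, with earlier results of these data known. All 9 were found among the 22400 genes with a count in at least 1 sample. All passed the filter on low counts that left 12925 genes for testing. The receptor's alpha and beta chains recognise antigen but have almost no part inside the cell, so the signal passes through the CD3 delta, epsilon, gamma and zeta chains, whose tails carry tyrosine motifs. LCK, held at the membrane beside CD4, phosphorylates these motifs, ZAP-70 docks on them and is activated, and ZAP-70 then phosphorylates LAT and SLP-76, the product of Lcp2, on which the enzymes of the calcium and Ras pathways assemble.

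Cells were from C57BL/6 mice of 8 to 10 weeks. WT animals carried the Cul5 fl/fl allele without Cre, and Cul5 cKO animals carried Cul5 fl/fl with CD4-Cre, which acts in developing T cells of both lineages and removes exons 9 to 11 of Cul5, the scaffold of a family of E3 ubiquitin ligases. As only the Cul5 cKO mice carried Cre, loss of Cul5 and presence of Cre cannot be told apart. Naive CD4+ T cells, labelled as from spleen, were activated in vitro for 48 h with antibodies to CD3 (2 µg/ml) and CD28 (1 µg/ml) under Th9 conditions, which here means IL-4 at 20 ng/ml, TGF-β at 2.5 ng/ml and an antibody to IFN-γ at 10 µg/ml, and poly-A RNA was sequenced from 3 samples of each genotype. The receptor of both genotypes had thus been engaged by antibody in culture, and no unstimulated sample is part of the comparison.

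Kallisto estimated between 23111689 and 23454552 reads in 5 of the libraries and 3944803 in WT replicate 3, where 3 counts, taken as the floor of detection for counting error alone, equal 0.76 CPM, the unit of counts scaled to a common library size. Every member lay far above that floor, with at least 376 counts in each sample. Cul5 itself was at 64.4, 69.3 and 65.0 CPM in WT and at 10.6, 14.2 and 13.1 CPM in Cul5 cKO replicates 1, 2 and 3, a log2 fold change of -2.39 (SE 0.115, edgeR adjusted p = 0.000992). Replicate 1 of both genotypes stood apart from the other samples, so values from replicates 2 and 3 alone are given for the members and the pathway genes it touches. The labels do not say whether samples came from separate mice, and p-values measure the spread between these samples.

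The members lie on 6 chromosomes of GRCm38, and 3 of them share a locus. Cd3g (ENSMUSG00000002033, chromosome 9, 44969572 to 44980431, minus strand), Cd3d (ENSMUSG00000032094, 44981786 to 44987339, plus strand) and Cd3e (ENSMUSG00000032093, 44998740 to 45009627, minus strand) stand within 40.06 kb, with 1354 bases between Cd3g and Cd3d, which are transcribed away from each other. This cluster is 8.605 Mb from Cul5 on the same chromosome. Cd247 (ENSMUSG00000005763) is on chromosome 1 from 165788681 to 165877277, and Zap70 (ENSMUSG00000026117) on the same chromosome from 36761798 to 36782818. Cd4 (ENSMUSG00000023274) is on chromosome 6 from 124864692 to 124888221, Lck (ENSMUSG00000000409) on chromosome 4 from 129548344 to 129573641, Lat (ENSMUSG00000030742) on chromosome 7 from 126363824 to 126369570, and Lcp2 (ENSMUSG00000002699) on chromosome 11 from 34046920 to 34092295.

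The 150 bases before the start sites of the 4 signalling chains, of the 2 starts of Lck and of Lat are shown, because these are the members whose samples separated by genotype and because Lck has starts that can be told apart in the data. They are from RefSeq on GRCm38.p6, 5′ to 3′ on the gene's own strand, so that the last base is the one before the start. Capitals mark AGGAAG, a core bound by Ets factors, and TGTGGT, a core bound by Runx factors, on either strand, cut where a motif runs past the start. The windows are chr9:44981636-44981785 (plus strand) for Cd3d, chr9:45009612-45009761 (minus) for Cd3e, chr9:44980432-44980581 (minus) for Cd3g, chr1:165788531-165788680 (plus) for Cd247, chr4:129573642-129573791 (minus) for the distal and chr4:129558373-129558522 (minus) for the proximal start of Lck, and chr7:126369569-126369718 (minus) for Lat.
Cd3d: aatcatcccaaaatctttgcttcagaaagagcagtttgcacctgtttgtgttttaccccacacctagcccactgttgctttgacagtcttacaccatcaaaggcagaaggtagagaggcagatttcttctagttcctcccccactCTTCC
Cd3e: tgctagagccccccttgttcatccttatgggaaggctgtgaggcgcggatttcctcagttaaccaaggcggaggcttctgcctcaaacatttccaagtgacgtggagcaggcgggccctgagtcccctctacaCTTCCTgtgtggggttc
Cd3g: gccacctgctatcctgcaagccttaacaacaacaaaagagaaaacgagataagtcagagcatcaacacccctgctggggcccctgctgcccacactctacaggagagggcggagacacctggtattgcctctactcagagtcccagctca
Cd247: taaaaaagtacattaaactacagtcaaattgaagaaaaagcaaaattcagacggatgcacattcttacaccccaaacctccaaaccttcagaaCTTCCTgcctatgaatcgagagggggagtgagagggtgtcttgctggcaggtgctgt
Lck distal: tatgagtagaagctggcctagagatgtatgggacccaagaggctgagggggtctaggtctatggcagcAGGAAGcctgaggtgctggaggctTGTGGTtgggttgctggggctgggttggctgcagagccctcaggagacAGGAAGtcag
Lck proximal: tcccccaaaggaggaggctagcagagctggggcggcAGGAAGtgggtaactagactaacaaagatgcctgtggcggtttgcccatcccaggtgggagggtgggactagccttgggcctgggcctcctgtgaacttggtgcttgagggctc
Lat: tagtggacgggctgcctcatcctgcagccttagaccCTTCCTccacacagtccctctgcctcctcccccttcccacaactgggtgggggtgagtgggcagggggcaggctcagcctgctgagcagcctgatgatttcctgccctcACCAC

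The RefSeq promoter table used here gave 11 start sites for 8 of the 9 members, and Cd4 was not analysed here. In windows of 250 bases before to 50 after the start, searched on both strands, AGGAAG was found in 9 of the 11, where 35.4% of all 32851 promoters hold it. The E-box CAGGTG was found in 8 (20.2% of all promoters), TGTGGT in 3 (16.8%), the GC box GGGCGG in 2 (35.7%) and TATAAA in 0 (13.6%). AGGAAG stood 17 bases before the start of Cd3e, 57 before that of Cd247 and 10 before the distal start of Lck, as counted from the first base of the match, and ran across the start of Cd3d from 5 bases before it. The Cd3g window had no AGGAAG but CAGGTG at 2 places. These are matches of letters and describe the windows only.

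In edgeR's quasi-likelihood test, with p-values adjusted by Benjamini and Hochberg's method over all genes tested, 0 of the 9 members had an adjusted p under 0.05, where 1.03% of all genes did. At an unadjusted p under 0.05 there were 3 lower members (Cd3e, Cd3g and Cd247), where 10.4% of all genes were lower at that level, and 1 higher (Lat), where 10.9% were higher. DESeq2 called the 3 lower members (5.36% of all genes), and limma on the deposited gene-level table called 0 (0.374%). Every Cul5 cKO sample was under every WT sample in 5 members (13.5% of all genes) and above them in 1 (14% of all genes). The median log2 fold change was -0.09 over the members and -0.01 over all genes tested.

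**Figure D1:**
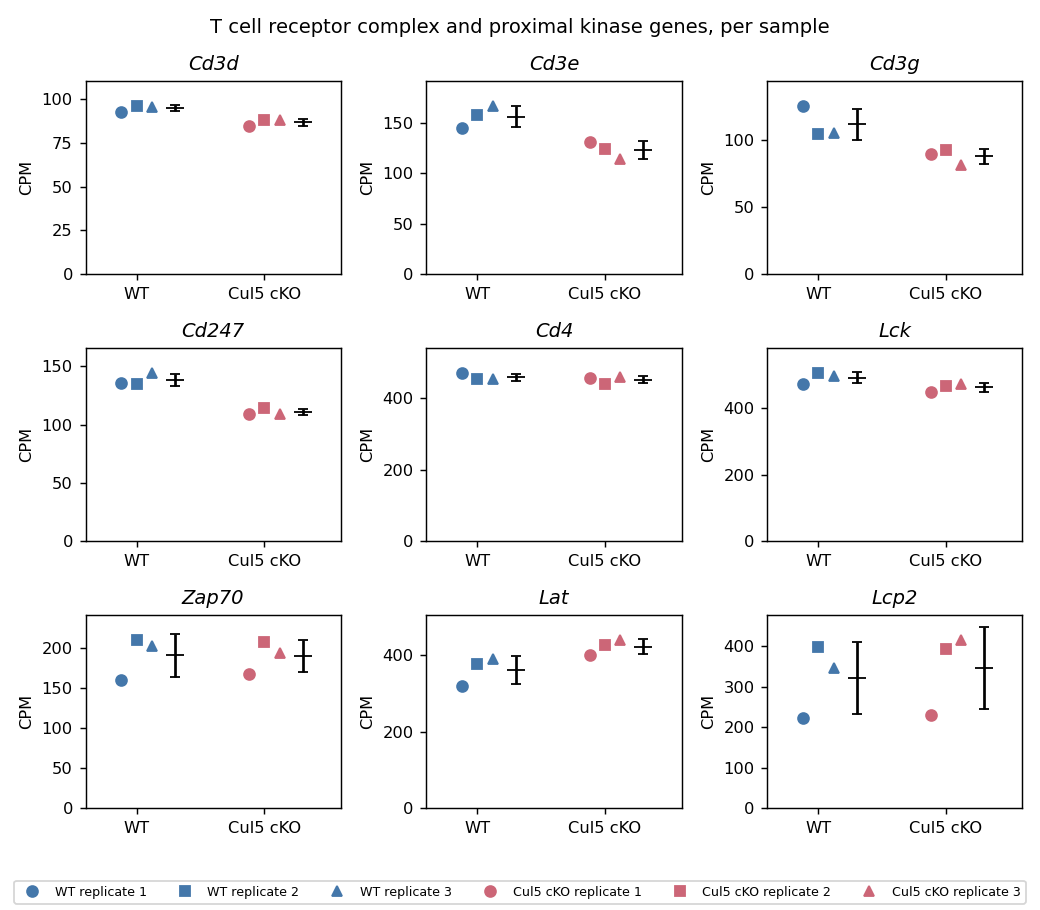
CPM of each member in each sample (y axis, from 0) for WT and Cul5 cKO cells, with a symbol per replicate and black bars for mean ± SD (n = 3). The Cul5 cKO points lie below the WT points for Cd3d, Cd3e, Cd3g, Cd247 and Lck and above them for Lat, and replicate 1 is the lowest point of both genotypes for Lcp2, at 222 and 229 CPM.

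The 4 signalling chains were each lower in all 3 Cul5 cKO samples than in all 3 WT samples. Cd3e, the chain that pairs with both CD3 delta and CD3 gamma, was at 145, 157 and 166 CPM in WT replicates 1, 2 and 3 and at 131, 124 and 114 CPM in Cul5 cKO replicates 1, 2 and 3. Its mean was 156 ± 10.8 CPM in WT against 123 ± 8.79 CPM in Cul5 cKO cells (SD, n = 3), or 78.7% of the WT level. The log2 fold change was -0.34 (SE 0.082, 95% interval -0.53 to -0.15, edgeR adjusted p = 0.0987). In bulk RNA, fewer cells that express a gene and less RNA per cell cannot be told apart.

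Cd3g, the gamma chain, gave 126, 105 and 106 CPM in WT, against 89.8, 93.0 and 81.9 CPM in Cul5 cKO cells. WT replicate 1 was the highest sample, and the groups remain separate when it is set aside. The means were 112 ± 11.8 and 88.2 ± 5.71 CPM (SD, n = 3), with a log2 fold change of -0.35 (SE 0.093, 95% interval -0.57 to -0.13, edgeR adjusted p = 0.112). The estimate shrank to -0.25 without WT replicate 1. In replicates 2 and 3 alone it was -0.262 (95% interval -0.449 to -0.0759, edgeR adjusted p = 0.0809).

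Cd247, which encodes the zeta chain and with it the larger part of the receptor's tyrosine motifs, gave 136, 135 and 144 CPM in WT, against 109, 114 and 109.55 CPM in Cul5 cKO cells. The spread within each group was small, at 138 ± 5.09 and 111 ± 2.60 CPM (SD, n = 3), and the gap between the lowest WT and the highest Cul5 cKO sample was wider than either group's range. Its log2 fold change of -0.32 (SE 0.061, 95% interval -0.46 to -0.17) had the lowest adjusted p of the members, 0.0668 in edgeR. Pou2f1 overlaps Cd247 on the opposite strand, and 7 of the 9 Cd247 transcripts share stretches with it, of up to 2140 bases at full identity. The strandedness of the libraries is not given in the sources used here, but the principal transcript Cd247-201, with 90.2% of the gene's counts, shares none of these stretches, and its own log2 fold change was -0.27.

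Cd3d, the delta chain, differed least among the chains. Its samples were at 92.4, 95.7 and 95.1 CPM in WT, against 84.4, 87.6 and 87.6 CPM in Cul5 cKO cells, so that the groups did not overlap although the means were only 94.4 ± 1.73 and 86.5 ± 1.87 CPM (SD, n = 3). The log2 fold change was -0.13 (SE 0.058, 95% interval -0.26 to 0.01, edgeR adjusted p = 0.271). For each of the members whose groups did not overlap, the exact two-sided permutation test gave p = 0.1, the smallest that 3 samples against 3 allow.

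The labels do not say whether equal replicate numbers mark paired samples of the 2 genotypes. The main test did not pair them, and the numbers serve here to name the samples.

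**Figure D2:**
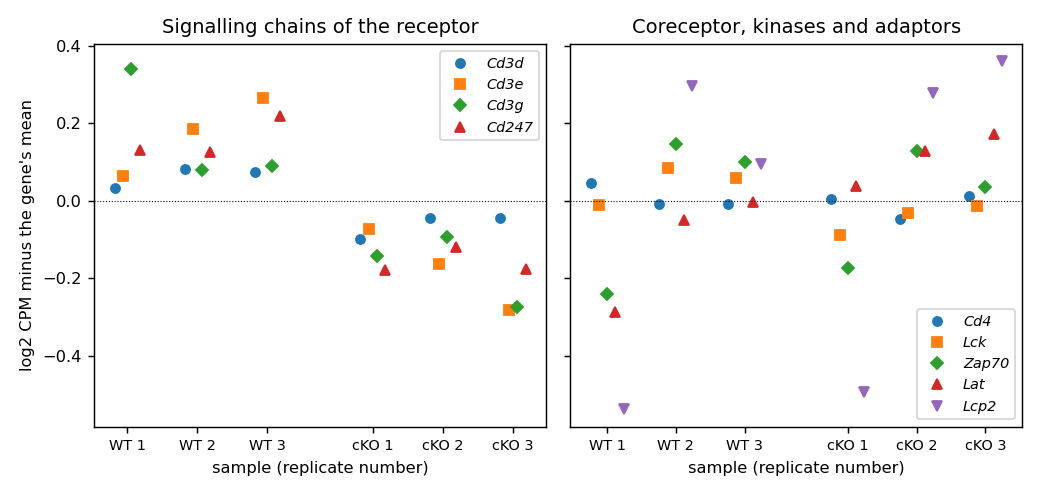
Log2 CPM of each member minus its own mean over the 6 samples (y axis), per sample (x axis), with the 4 signalling chains at left and the coreceptor, kinases and adaptors at right. All chains lie above 0 in the WT and below 0 in the Cul5 cKO samples, while Lcp2 is at -0.54 and -0.49 in replicate 1 of WT and Cul5 cKO.

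Cd4 and Lck, whose products sit together at the membrane, differed little between genotypes. Cd4 was at 469.5, 452 and 452 CPM in WT, against 456, 440.1 and 459 CPM in Cul5 cKO cells, with overlapping groups. Its log2 fold change was -0.02, and the 95% interval of -0.14 to 0.10 bounds a difference in either direction to a small size. Lck, the kinase that begins the cascade, was at 471, 503 and 495 CPM in WT, against 447, 465 and 470.05 CPM in Cul5 cKO cells. The Lck groups did not overlap, but the highest Cul5 cKO and the lowest WT sample nearly touched, and the log2 fold change was -0.09 (SE 0.055, 95% interval -0.22 to 0.04, edgeR adjusted p = 0.401).

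Zap70, the kinase recruited to the phosphorylated chains, showed the spread of replicate 1. It was at 160.0, 209 and 203 CPM in WT, against 168, 207 and 194 CPM in Cul5 cKO cells, so that replicate 1 was the lowest sample of both genotypes. The log2 fold change was -0.01 with a 95% interval of -0.29 to 0.28. In replicates 2 and 3 alone the estimate was -0.04 and the interval narrowed to -0.19 to 0.11.

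The adaptors did not follow the chains. Lat, the membrane adaptor that ZAP-70 phosphorylates, was at 319, 377 and 389 CPM in WT, against 400.5, 426 and 439.6 CPM in Cul5 cKO cells. All Cul5 cKO samples were above all WT samples, and the log2 fold change was 0.22 (SE 0.086, 95% interval 0.02 to 0.43, edgeR adjusted p = 0.200). It was 0.18 in replicates 2 and 3 alone (95% interval 0.04 to 0.32), and 0.14 when WT replicate 1, the lowest sample, was left out.

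Lcp2, which encodes SLP-76, had the widest spread of the members. Its values were 222, 396 and 345 CPM in WT, against 229, 392 and 414 CPM in Cul5 cKO cells, and replicate 1 lay below the mean of the other 2 replicates by 0.73 in WT and 0.81 in Cul5 cKO cells on the log2 scale. The corresponding distance of a typical gene, the median of the absolute differences over all genes tested, was 0.20 in WT and 0.16 in Cul5 cKO cells. The Lcp2 log2 fold change of 0.11 had a 95% interval of -0.53 to 0.74, and with replicates 2 and 3 alone it was 0.12 with an interval of -0.08 to 0.32. Zap70 and Lat also read lower in replicate 1 of both genotypes, by 0.37 and 0.26 for Zap70 and by 0.26 and 0.11 for Lat in WT and Cul5 cKO. Cd3e read lower in replicate 1 by 0.16 in WT but higher by 0.148 in Cul5 cKO cells. Cd3g read higher in replicate 1, by 0.256 in WT and 0.041 in Cul5 cKO cells. Cd3d, Cd247, Cd4 and Lck differed from the other replicates by at most 0.08 in either genotype.

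Because replicate 1 stood apart for some genes, the fit was repeated without it. In replicates 2 and 3 alone, where 8.83% of all genes had an adjusted p under 0.05, 2 members did. Cd3e had a log2 fold change of -0.44 (edgeR adjusted p = 0.0241) and Cd247 of -0.31 (edgeR adjusted p = 0.0381). For Cd247 the SE did not fall, at 0.061 with all samples and 0.062 here. Its unadjusted edgeR p was 0.00103 with all samples and 0.00204 here. The adjusted p of Cd247 was thus lower only because many more genes had small p-values, with 1153 calls against 133. Over the alternatives that adjust p, it ranged from 0.0182 to 0.31 for Cd3e and from 0.00753 to 0.25 for Cd247, with DESeq2 lowest for both. The direction of Cd3d, Cd3e, Cd3g, Cd247, Lck and Lat was the same in all 20 alternatives, while Cd4, Zap70 and Lcp2 changed sign in at least 1.

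**Figure D3:**
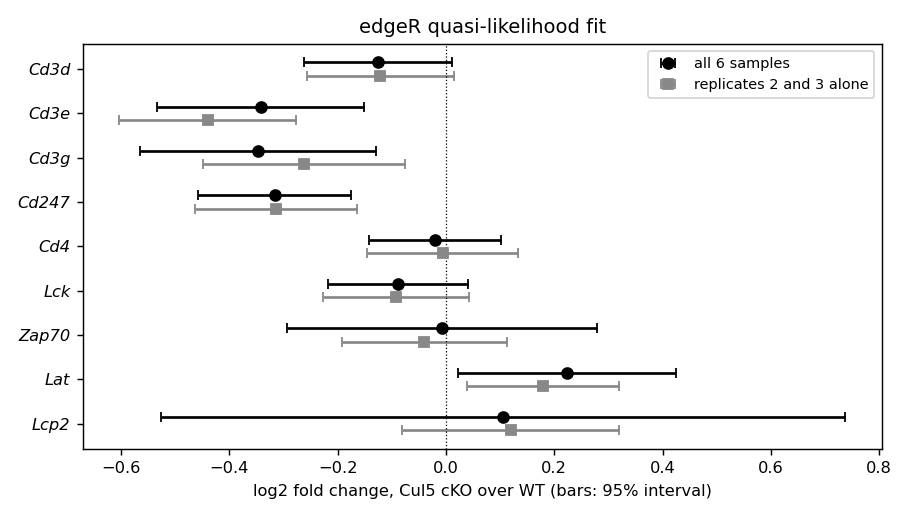
Log2 fold change of Cul5 cKO over WT (x axis) for each member with its 95% interval, from all 6 samples (black circles) and from replicates 2 and 3 alone (grey squares). The intervals of Cd3e, Cd3g, Cd247 and Lat leave out 0 in both fits, and that of Lcp2 narrows from -0.53 to 0.74 to -0.08 to 0.32.

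The gene-level table that the authors made, in which values are TMM-normalized log2 CPM, gave like differences of the group means. These were -0.10 for Cd3d, -0.29 for Cd3e, -0.29 for Cd3g, -0.32 for Cd247, -0.04 for Cd4, -0.14 for Lck, -0.01 for Zap70, 0.25 for Lat and 0.04 for Lcp2. The 4 chains were again lower in every Cul5 cKO sample (11.8% of all entries in the table) and Lat higher in every one (11.7%), while the Lck groups overlapped in this table.

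Levels were compared between members in TPM, which scale counts for both library size and transcript length. In WT cells Lat was the highest at 539 ± 64.4 TPM, followed by Lck at 398 ± 34.7 and Cd4 at 238 ± 2.65 TPM (SD, n = 3). Cd3e was at 193 ± 17.6, Cd3g at 187 ± 22.4, Lcp2 at 180.0 ± 58.6, Cd247 at 136 ± 4.70, Zap70 at 134 ± 21.0 and Cd3d at 104 ± 12 TPM (SD, n = 3). The samples of Lat, Lck and Cd4 did not overlap with those of the next member in this order, whereas from Cd3e down every member overlapped with the next. All members were abundant, with WT means above those of 88.4% (Cd3d) to 98.2% (Lat) of the genes tested.

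In Cul5 cKO cells the first 3 places were the same, with Lat at 603 ± 18.6, Lck at 356 ± 3.44 and Cd4 at 227 ± 8.19 TPM (SD, n = 3). Lcp2 at 179 ± 43.8 TPM then stood above Cd3g at 150.3 ± 12.5 and Cd3e at 146 ± 10.9 TPM, but its samples overlapped with those of Cd3g. Zap70 at 129.9 ± 12.2 TPM now read above Cd247 at 107 ± 3.66 TPM, with no overlap, and Cd3d was last at 88.6 ± 2.32 TPM (SD, n = 3). The highest member exceeded the lowest 5.18-fold in WT and 6.80-fold in Cul5 cKO cells. Within the CD3 complex, the zeta and delta chains were the lowest in both genotypes on this scale.

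**Figure D4:**
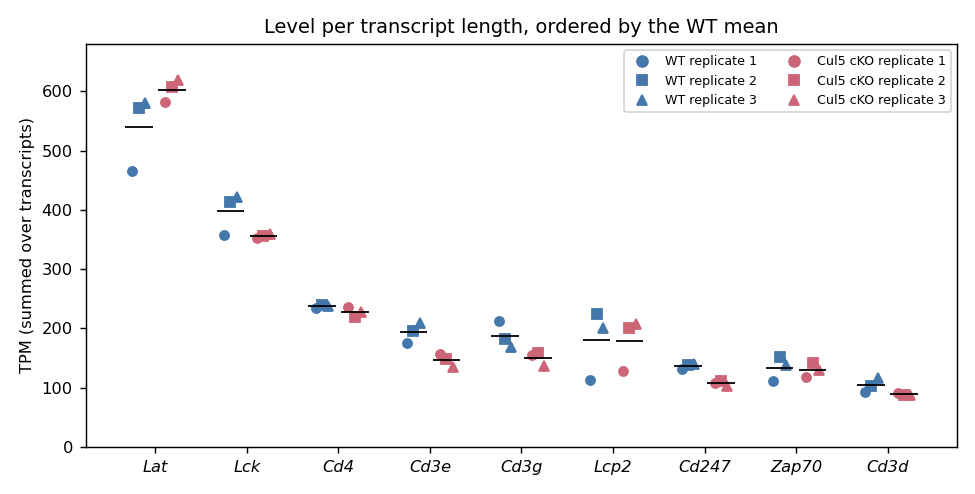
TPM of each member in each sample (y axis, from 0), ordered by the WT mean, with a symbol per replicate and a line for each group's mean. Lat, Lck and Cd4 keep the first 3 places in both genotypes, and Zap70 lies above Cd247 in every Cul5 cKO sample.

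Each member was read mainly from 1 transcript, except Lcp2. The leading transcript held 99.4% of the counts of Cd3d, 87.2% of Cd3e, 95.1% of Cd3g, 97.3% of Cd4, 94.2% of Lck, 96.4% of Zap70 and 82.2% of Lat. Lcp2-201 held 64.6% of the counts of Lcp2 and Lcp2-202, the other transcript over 10%, held 34.2%. The files list 46 transcripts of the members, and 36 passed the filter on low counts. By edgeR's quasi-likelihood test 0 of the 36 had an adjusted p under 0.05, as did 0% of the 40261 transcripts tested, and 5 had an unadjusted p under 0.05, as did 6.6% of all transcripts tested.

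The leading transcripts of Cd3e, Cd3g, Cd247 and Lat had the sign of their genes. Cd3e-201 had a log2 fold change of -0.26 (95% interval -0.48 to -0.03), Cd3g-201 of -0.31 (-0.62 to 0.00), Cd247-201 of -0.27 (-0.45 to -0.08) and Lat-201 of 0.29 (0.10 to 0.48). Lat-201 was at 286.7 ± 14.4 CPM in WT against 351 ± 12.1 CPM in Cul5 cKO cells (SD, n = 3), without overlap. Cd3d-201 was at -0.07 (-0.28 to 0.14) and Lck-202 at -0.02 (-0.19 to 0.16), both with overlapping groups.

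Lck is transcribed from a distal and a proximal start that lie 15250 bases apart, of which the proximal one is known for its use in thymocytes and the distal one for its use in mature T cells. The transcript from the distal start held 92.9 ± 1.34% of Lck counts in WT and 95.1 ± 0.84% in Cul5 cKO cells (SD, n = 3). The 3 other protein-coding transcripts, taken here as those of the proximal start, held 3.92 ± 1.82% and 3.05 ± 0.99% (SD, n = 3). Their starts were not checked one by one. By sample, the share of the proximal start was 4.13, 5.62 and 2.0% in WT and 1.92, 3.44 and 3.78% in Cul5 cKO cells, so the groups overlapped. Reads of 50 bp that fall in exons common to both were divided between the transcripts by estimation, which adds to the error of such shares.

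In the share of counts on transcripts annotated as retained introns, WT replicate 3, the shallow library, stood out. These transcripts held 3.29, 3.51 and 5.58% of the members' counts in WT and 3.36, 3.31 and 3.12% in Cul5 cKO cells, against 3.84, 4.17 and 5.33% and 3.72, 4.0 and 3.74% over all genes. Cd3g was the only member whose groups did not overlap in this share, at 3.5, 4.86 and 4.86% in WT and 2.78, 3.22 and 3.49% in Cul5 cKO cells. The nearest samples of the 2 groups almost touched, at 3.503 and 3.494%. How many of all genes separate likewise was not counted. For Cd3e the share was 13.6, 12.2 and 19.2% in WT and 11.4, 12.9 and 12.2% in Cul5 cKO cells. The part of the depth of WT replicate 3 in these shares was not tested.

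The rest of the pathway was read from 5 lists with 51 genes, all of which were tested. In edgeR 0 of them were higher at an adjusted p under 0.05 (0.611% of all genes) and 2 were lower (0.418%), Cd28 and Fyb. DESeq2 called 11 of the 51, all lower, where it called 5.36% of all genes, 332 of 693 lower. With limma on the gene-level table, which gave no estimate for Trat1, Cd28 alone was called (0.374% of all genes). At an unadjusted p under 0.05, 3 of the 51 were higher (10.9% of all genes) and 14, or 27.5%, were lower (10.4%). The groups did not overlap in 3 higher (14% of all genes) and 15 lower genes, or 29.4% of the 51 (13.5%). The median log2 fold change over the 51 genes was -0.12.

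Among the receptor chains and coreceptors, 1 of 9 genes was lower at an adjusted p under 0.05 in edgeR (0.418% of all genes). At that level 0 were higher (0.611%). At an unadjusted p under 0.05, 3 were lower (10.4%) and 1 was higher (10.9%). The groups did not overlap in 3 lower (13.5%) and 0 higher genes (14%). Cd28, the costimulatory receptor that the culture's anti-CD28 engages, was at 88.2, 120.1 and 125 CPM in WT, against 46.4, 56.3 and 45.0 CPM in Cul5 cKO cells. It fell by 1.17 on the log2 scale (SE 0.150, edgeR adjusted p = 0.0205). Over the alternatives tried its adjusted p ranged from 2.97e-11 to 0.136, and it was above 0.05 without WT replicate 2 (0.105), WT replicate 3 (0.1), Cul5 cKO replicate 1 (0.051) and Cul5 cKO replicate 3 (0.136) and with limma on TPM.

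The beta chain constant genes Trbc1 and Trbc2, picked out after their values were seen because they belong to the receptor itself, lay near the CD3 chains. They share reads, with 95.6% identity over 521 bases, and were therefore also summed. The sum was 519.5, 516.8 and 529.6 CPM in WT, against 379, 445 and 376 CPM in Cul5 cKO cells, with no overlap and a log2 fold change of -0.38 (SE 0.077, edgeR adjusted p = 0.0701). Trac, the constant gene of the alpha chain, was at -0.09 with overlapping groups. Cd8a, the coreceptor of the other lineage, was at 1.25 ± 0.36 CPM in WT against 2.85 ± 3.02 CPM in Cul5 cKO cells (SD, n = 3), where Cul5 cKO replicate 3 alone reached 6.27 CPM. Its log2 fold change was 1.12 with all samples and -0.19 without that replicate.

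Of the 9 regulators of Lck, 0 passed in edgeR in either direction (1.03% of all genes). At an unadjusted p under 0.05, 2 were lower (10.4% of all genes) and 0 higher (10.9%). In point estimate 7 were lower, or 77.8%, where 51.2% of all genes tested were. The largest differences were those of Themis, a T cell adaptor, at -0.70 (edgeR adjusted p = 0.109), and Ptpn22, a phosphatase that removes the activating phosphate of LCK, at -0.35 (edgeR adjusted p = 0.0991). Csk, the kinase that places the inhibitory phosphate on LCK, was at -0.01, and Ptprc (CD45), the phosphatase that removes it, at -0.18 with overlapping groups.

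Among the 13 adaptors that meet LAT and SLP-76, 1 was lower at an adjusted p under 0.05 in edgeR (0.418% of all genes). At that level 0 were higher (0.611%). At an unadjusted p under 0.05, 5 were lower (10.4%) and 1 was higher (10.9%). The groups did not overlap in 5 lower (13.5%) and 2 higher genes (14%). Fyb, which encodes the SLP-76 binding protein ADAP, was at 163, 159 and 216 CPM in WT, against 90.8, 90.1 and 72.4 CPM in Cul5 cKO cells. It fell by 1.08 on the log2 scale (SE 0.142, edgeR adjusted p = 0.0220), and the adjusted p ranged from 2.47e-11 to 0.104 over the alternatives tried. Without WT replicate 2, WT replicate 3, Cul5 cKO replicate 2 or Cul5 cKO replicate 3 it was 0.0771, 0.0816, 0.0702 and 0.104, and it was also above 0.05 with limma on the gene-level table or on TPM and with counts scaled from TPM. Trat1, a small membrane adaptor associated with the receptor complex, was at -1.49 (edgeR adjusted p = 0.114), with no overlap and WT values from 9.78 to 32.6 CPM.

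Of the 11 enzymes that act after ZAP-70, 0 passed in edgeR (1.03% of all genes). At an unadjusted p under 0.05, 4 were lower (10.4% of all genes) and 0 higher (10.9%). In point estimate 9 were lower (81.8%, against 51.2% of all genes), with a median of -0.20. Dgka, which removes the diacylglycerol made on receptor signalling, was at -0.79 (edgeR adjusted p = 0.0897), and Rasgrp1, the Ras activator that binds diacylglycerol, was at -0.59 (edgeR adjusted p = 0.0674). Both were lower in every Cul5 cKO sample. Of the 9 E3 ligases and phosphatases that act on the receptor, 0 passed in edgeR, and the median was -0.02. At an unadjusted p under 0.05, 1 of them was higher, or 11.1%, near the 10.9% of all genes, and 0 were lower (10.4%). Cblb, a ligase known as a brake on T cell activation, was at -0.51 (edgeR adjusted p = 0.439), with replicate 1 the lowest sample of both genotypes. Its values were 39.5, 83.7 and 75.4 CPM in WT, against 28.1, 61.2 and 48.9 CPM in Cul5 cKO cells, and its estimate ranged from -0.79 without WT replicate 1 to -0.25 without Cul5 cKO replicate 1, with -0.27 without WT replicate 2 and -0.76 without Cul5 cKO replicate 2. Ptpn2, a phosphatase of LCK, was at 0.17 without overlap (edgeR adjusted p = 0.232).

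In replicates 2 and 3 alone, 8.83% of all genes were called in either direction, 581 lower and 572 higher. Of the 51 pathway genes 12 were called lower and 2 higher (Cd2 and Malt1). Among the genes named above, Cd28 and Fyb were called again, at -1.27 and -1.18 (edgeR adjusted p = 0.00798 and 0.0194). Trat1 was called at -1.69, Themis at -0.84 and Ptpn22 at -0.46 (edgeR adjusted p = 0.0134, 0.0126 and 0.0194), and over the alternatives that adjust p these ranged from 0.00101 to 0.336, from 0.00571 to 0.34 and from 0.0194 to 0.321. Dgka was called at -0.92, Rasgrp1 at -0.71 and Cblb at -0.54 (edgeR adjusted p = 0.0241, 0.0235 and 0.045), with ranges from 0.000225 to 0.3, from 0.000111 to 0.233 and from 0.011 to 0.762.

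**Figure D5:**
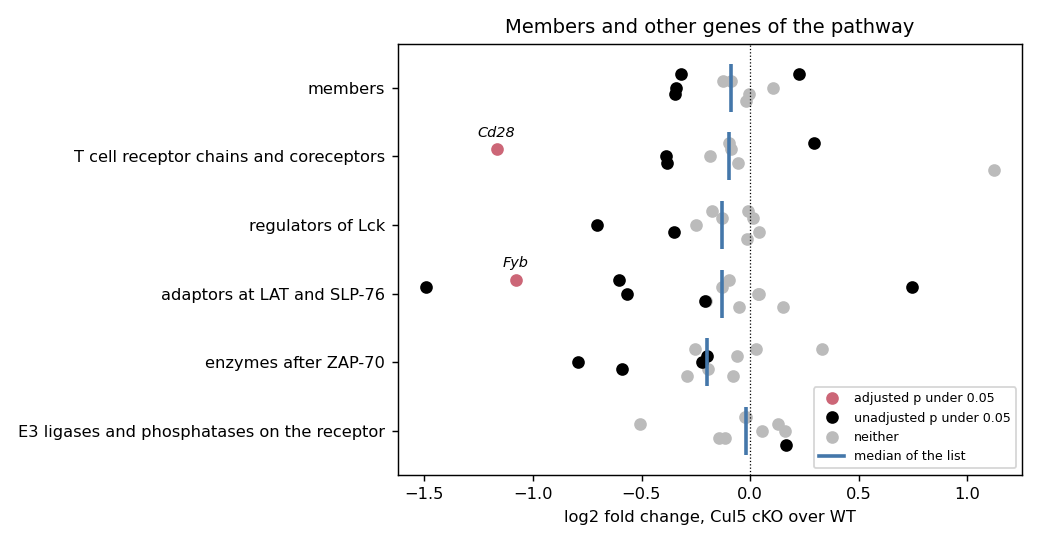
Log2 fold change of Cul5 cKO over WT (x axis) for the 9 members and for the genes of the 5 pathway lists (rows), with a point per gene coloured by its edgeR p-value and a blue line at the median of the list. Cd28 and Fyb are the 2 genes with an adjusted p under 0.05, and the medians of the lists lie between -0.20 and -0.02.

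The label of the cells was checked on markers, and the defining genes of T cells were high in every sample. Summed over 10 T cell genes, which include 5 of the members and Trbc1 and Trbc2, the level was between 2113 and 2218 CPM in WT. It was between 1872 and 2015 CPM in Cul5 cKO cells, without overlap. This difference repeats those of the CD3 chains, Trbc1 and Trbc2 given above and is no separate result. The other genes of the list, Cd4, Trac, Cd2 and Cd5, had overlapping groups. Counterparts of the members in other blood cells were low by comparison. The sum over 11 such genes (among them Syk, the relative of Zap70 in B cells and myeloid cells, and Cd79a and Cd79b, the signalling chains of the B cell receptor) lay between 21.3 and 29.8 CPM in WT and between 16.2 and 47.3 CPM in Cul5 cKO cells. Syk was at 1.54, 1.12 and 0.51 CPM in WT, against 1.09, 11.3 and 2.76 CPM in Cul5 cKO cells, with Cul5 cKO replicate 2 the highest.

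The summed levels of marker genes of other cell types overlapped between genotypes. Single genes in these lists did not all overlap, as Tcrg-C2 was lower and Cd22 higher in every Cul5 cKO sample. The summed level was 84.8 to 118 CPM in WT and 41.3 to 131 CPM in Cul5 cKO cells for 8 B cell genes, 6.45 to 10.99 and 5.91 to 24.9 CPM for 8 myeloid genes, and 7.22 to 17.9 and 7.82 to 18.2 CPM for 7 NK cell genes, of which Ncr1 and Klra8 were at 0. It was 5.76 to 6.53 and 4.30 to 11.7 CPM for the CD8 genes, 11.6 to 13.2 and 9.51 to 16.6 CPM for 6 gamma delta T cell genes with Trdv4 at 0, and 0.25 to 1.07 and 0.98 to 3.24 CPM for 6 erythroid genes. The highest myeloid sum was that of Cul5 cKO replicate 2 and the highest B cell and CD8 sums those of Cul5 cKO replicate 3. Their part in the differences of the members was not tested.

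The 9 members were finally averaged into a profile over the 6 samples, each gene centred on its mean log2 CPM. Of 8685 other genes with at least 10 CPM, those closest to that profile by the root mean square difference were Sh3gl1 (0.019), Ythdc1 (0.021), Cd2ap (0.022), Zfp866 (0.024) and Ppm1b (0.026), which stand here as a description of 6 samples. Lck was the member nearest to the profile, at 0.035, and Lcp2 the farthest, at 0.32.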

How the data were processed

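Poly-A RNA of 3 WT and 3 Cul5 cKO cultures was read from 1 end over 50 bp. Per the submitters' processing notes, kallisto 0.46.2 and edgeR 3.34.0 were used on GRCm38. The authors deposited expected counts (kallisto's estimates, not normalized) and TPM for 119414 transcripts per sample, and a gene-level table of log2 CPM. That table's fold changes and p-values were not used. GENCODE vM21 matched 97.7% of the transcripts; the rest held about 1% of the counts of a sample (0.958% to 1.04%).

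Expected counts were summed by gene, rounded and compared in R 4.3.3 with edgeR 4.0.16 (expression filter, TMM, quasi-likelihood test, Benjamini-Hochberg adjustment over 12925 genes). CPM use TMM library sizes, and the standard error is the fold change over the square root of F. The test was also run on simulated counts, which had less spread between samples than these data and no difference of replicate 1. That run therefore does not show how often differences of the members' size would be found here. Alternatives used DESeq2 1.42.0, limma 3.58.1 on log2 values with pseudocounts of 1 and 0.1 on TPM, other filters and scalings, libraries thinned to WT replicate 3, the replicate number as a block, and each sample left out. Transcripts were tested likewise, and shared stretches were found with blastn 2.17.0. With 3 samples a group no sample was tested as an outlier.

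The members, lists and tests were chosen with earlier results of these data known. Genes named are Cul5, the members, pathway genes with an adjusted p under 0.05, the 2 genes of each pathway list with the largest fold change, the 5 genes closest to the members' profile, markers of other cells, and transcripts with at least 10% of a member's counts. Cd2, Cd5, Csk, Malt1, Ptprc, Trac, Trbc1 and Trbc2 were added after their values were seen.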

Additional observations from a re-analysis of the deposited data

How the results depend on the processing

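Cul5 kept its call under all 20 alternatives. The number of members called was 3 with DESeq2, 1 with library size alone, 2 with voom and sample quality weights, 2 in replicates 2 and 3 alone, 4 with the difference of replicate 1 as a term and 4 by the rule of the study, which takes each gene alone, assumes equal variances and leaves p unadjusted. In these settings, in the same order, the pathway lists had 11, 2, 12, 12, 16 and 13 genes called lower, and 0, 0, 0, 2, 1 and 3 higher, and all genes gave 693, 149, 1259, 1153, 1688 and 2362 calls. With no filter beyond 1 count, counts scaled from TPM, limma on the gene-level table, and limma on log2(TPM + 1) and on log2(TPM + 0.1), the pathway genes called lower were 4, 1, 1, 0 and 0. All calls there were 228, 61, 42, 27 and 30, or 1.02, 0.47, 0.374, 0.209 and 0.232% of the genes tested. With each sample left out 0 members were called, and the other 2 counts ranged from 0 to 5 and from 2 to 316. Library size alone split the calls into 72 higher and 77 lower, against 79 and 54. The 3 members that changed sign were close to 0 or wide in spread. With no filter Cd4 was at 0.00022 and Zap70 at 0.013, and with counts scaled from TPM Zap70 was at 0.013. With each sample left out Cd4 ranged from -0.029 to 0.0036, Zap70 from -0.12 to 0.077, Lcp2 from -0.10 to 0.33, Cd8a from -0.19 to 1.61, Lat from 0.14 to 0.28 and Cblb from -0.79 to -0.25. The cause was not tested. The transcripts of the members had 0 calls under all 10 alternatives run on them, at an unadjusted p under 0.05 for 5 with all samples.

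The replicate number as a block gave 2 members called (Cd3g and Cd247), 12 pathway genes lower and 848 calls in all (6.56% of all genes, 395 of them lower). Whether equal numbers mark paired samples is not stated in the labels, and 3 samples a group are too few to tell. The deviations from the group means correlated at 0.37, 0.206 and 0.0245 for numbers 1, 2 and 3. WT replicate 3 correlated best with Cul5 cKO replicate 2 (0.0914).

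Depth limits WT replicate 3, whose counting error is larger than that of the other samples. Over all genes 2 calls were left without WT replicate 2, 2 without WT replicate 3 and 3 without Cul5 cKO replicate 3, so that the absence of calls among the members in those settings says little about them.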
